A study of Mus musculus with 4 samples.

Results

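These results describe 10 genes that move cholesterol between membranes or add and remove its fatty acid ester, measured in mouse Neuro-2a cells exposed to the pyrethroid insecticide deltamethrin. The genes were named by symbol (Stard3, Stard4, Stard5, Npc1, Npc2, Nceh1, Pltp, Soat1, Lipa and Vldlr), and 9 of the 10 were matched, each to 1 probe set, among 19505 named genes and 22206 probe sets on the array. No probe set was matched here for Soat1, which is not analysed here. The group was assembled with the difference between exposed and vehicle-treated arrays already known, so the differences of its members are a description and not an independent test.

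Neuro-2a is a neuroblastoma line from the albino mouse strain A, grown in serum-containing medium. Semi-confluent cells received 30 µM deltamethrin (DM) or 0.1% DMSO, its vehicle, and after 24 h their RNA was profiled on Clariom S Mouse arrays from Affymetrix. There were 2 vehicle and 2 deltamethrin arrays, 4 in all, of 1 line at 1 dose and 1 time. The labels do not say that the arrays came from separate cultures, so the spread between them may be technical. Values are log2 expression as deposited, and each probe set has its own brightness, so levels are compared between arrays and not between genes. The table has no detection call, and "dim" below means that both group means were under the array-wide median of 5.60. The RNA came from whole cultures, so more transcript in every cell and a larger rise in some of the cells cannot be told apart.

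Cholesterol enters a cell inside lipoproteins that surface receptors take up, and it reaches the late endosome and lysosome mostly as ester. There an acid lipase frees it and the NPC2 and NPC1 proteins pass it out, after which carriers with a START domain (a pocket that holds 1 lipid molecule) or membrane contact sites deliver it to the endoplasmic reticulum (ER), mitochondria and plasma membrane. Excess sterol is esterified again in the ER, stored in lipid droplets and released by a neutral hydrolase. Neurons depend on this recycling, and loss of NPC1 or NPC2 function stores cholesterol in late endosomes and causes a neurodegenerative disease.

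The 3 members with the largest differences were Stard5, Pltp and Nceh1, and the 250 bases before their annotated start sites are printed here so that the letters upstream of the genes that were higher together can be read beside their values. The sequences are those of RefSeq on GRCm38.p6, 5′ to 3′ on the gene's strand, with matches to the motifs searched in capitals (CCAAT or its complement ATTGG, and CACGTG). Stard5 lies at chr7:83631767-83632016 on the + strand, Nceh1 at chr3:27182754-27183003 on the + strand and Pltp at chr2:164857709-164857958 on the - strand.
Stard5: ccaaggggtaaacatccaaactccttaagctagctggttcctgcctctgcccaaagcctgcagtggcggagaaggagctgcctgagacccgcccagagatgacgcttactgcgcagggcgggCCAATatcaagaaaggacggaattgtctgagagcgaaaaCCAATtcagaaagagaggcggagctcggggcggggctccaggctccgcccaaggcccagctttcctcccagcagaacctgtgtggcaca
Nceh1: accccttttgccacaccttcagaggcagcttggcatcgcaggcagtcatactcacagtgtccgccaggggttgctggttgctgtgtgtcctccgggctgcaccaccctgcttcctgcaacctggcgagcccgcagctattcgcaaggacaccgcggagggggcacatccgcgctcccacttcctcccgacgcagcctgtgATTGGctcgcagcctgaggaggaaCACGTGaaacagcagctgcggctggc
Pltp: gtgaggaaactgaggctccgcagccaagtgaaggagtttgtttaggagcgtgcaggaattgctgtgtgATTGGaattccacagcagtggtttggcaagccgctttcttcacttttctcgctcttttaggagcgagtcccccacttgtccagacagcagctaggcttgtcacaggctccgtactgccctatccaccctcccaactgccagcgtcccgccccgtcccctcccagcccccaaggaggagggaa

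Stard5 encodes a soluble START protein that binds cholesterol in the cytosol. Its values were 11.98 and 12.01 on the vehicle arrays and 14.63 and 14.65 on the deltamethrin arrays. Both deltamethrin arrays lay above both vehicle arrays, and the 4 differences between an exposed and a vehicle array ran from 2.62 to 2.67. The mean moved from 12.00 ± 0.02 to 14.64 ± 0.01 (SD, n = 2), a log2 difference of 2.65 ± 0.16 (SE) or 6.25-fold. The arrays of a group differed by 0.03 and 0.02, and Stard5 had the smallest SE as well as the largest difference among the members.

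Stard4 encodes the closest relative of STARD5 in this group, another soluble sterol carrier, whose gene is a known target of the sterol-sensing factor SREBP2. Its values were 12.34 and 12.21 with vehicle and 12.13 and 12.15 with deltamethrin. The exposed arrays lay below the vehicle arrays by a margin of 0.06, smaller than the 0.13 between the vehicle arrays. The log2 difference was -0.14 ± 0.17 (SE, n = 2), with a 95% interval from -0.53 to 0.26. The gap between the values of Stard5 and Stard4 was not tested, because both genes were chosen on this comparison.

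Stard3, which tethers late endosomes to the ER and carries its START domain on a membrane anchor, had values of 8.10 and 8.52 with vehicle and 8.50 and 8.10 with deltamethrin. The groups covered almost the same range, and the arrays within a group differed by 0.42 and 0.40. The log2 difference was -0.01 ± 0.23 (SE, n = 2), and the 95% interval from -0.56 to 0.54 leaves room for a moderate change in either direction.

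**Figure D1:**
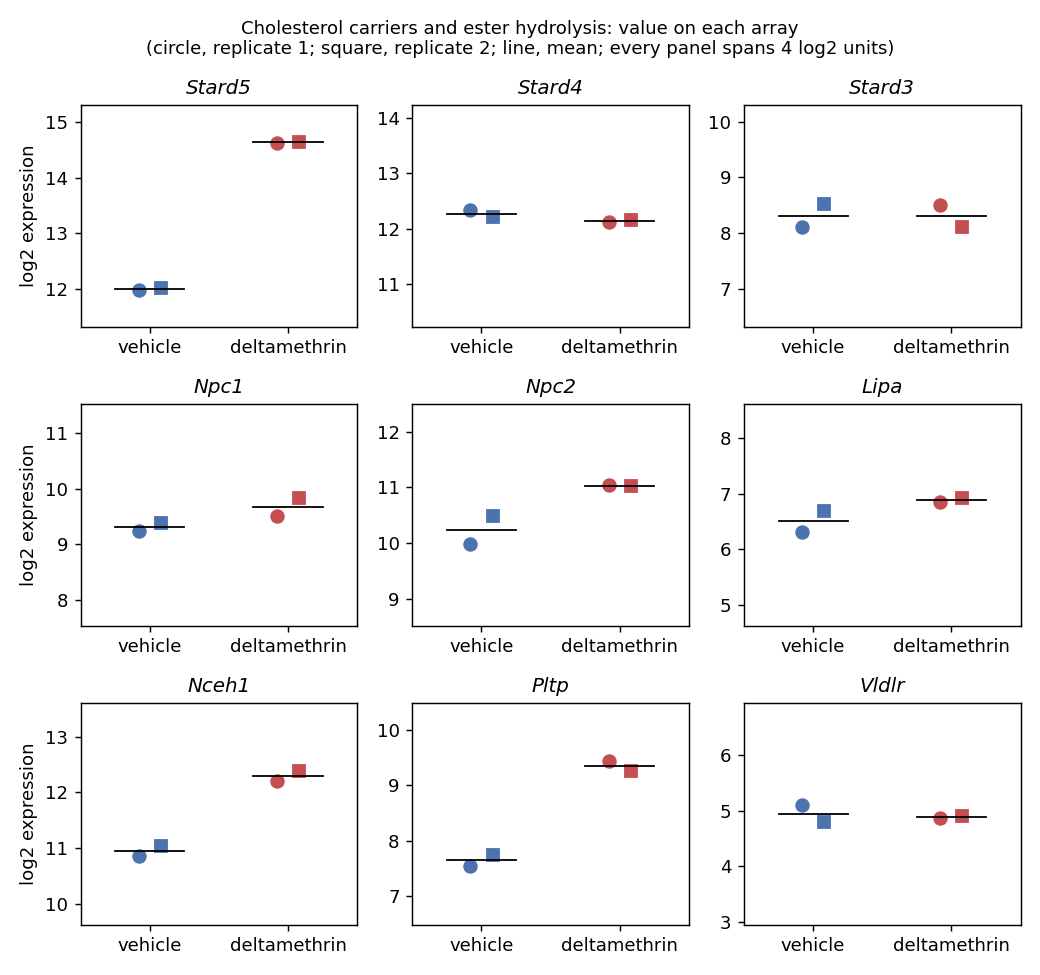
Log2 expression (y axis) of the 9 measured members on each vehicle and deltamethrin array, with replicate 1 as circles, replicate 2 as squares and the group mean as a line. Stard5, Pltp and Nceh1 show gaps of 2.62, 1.51 and 1.18 between the nearest arrays of the groups, whereas the Stard3 and Vldlr groups overlap.

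NPC2 is the small lumenal protein that takes cholesterol from late endosomal vesicles, and NPC1 is the membrane protein that receives it. Npc2 read 9.98 and 10.48 with vehicle and 11.04 and 11.03 with deltamethrin. The exposed arrays were above both vehicle arrays, but the vehicle arrays themselves differed by 0.50 against a gap of 0.55 between the groups. The log2 difference of Npc2 was 0.81 ± 0.21 (SE, n = 2), or 1.75-fold. Npc1 read 9.24 and 9.38 with vehicle and 9.52 and 9.83 with deltamethrin. Its groups did not overlap either, with a gap of 0.14 and a spread of 0.31 between the exposed arrays. The log2 difference of Npc1 was 0.37 ± 0.19 (SE, n = 2), with a 95% interval from -0.09 to 0.82 that includes 0.

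The 2 measured hydrolases act on cholesteryl ester in different compartments. Lipa encodes the lysosomal acid lipase, which frees cholesterol from lipoprotein esters, and its values were 6.32 and 6.69 with vehicle and 6.85 and 6.93 with deltamethrin. The groups were separated by 0.16, less than the 0.37 between the vehicle arrays, and the log2 difference was 0.39 ± 0.19 (SE, n = 2). Nceh1 encodes a neutral hydrolase anchored in the ER that acts on cholesteryl ester and on acetylated ether lipids. Its values were 10.86 and 11.03 with vehicle and 12.21 and 12.38 with deltamethrin. Both groups had a spread of 0.17 between arrays, well under the gap of 1.18, and the log2 difference was 1.35 ± 0.17 (SE, n = 2), or 2.55-fold.

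Pltp encodes a secreted protein that moves phospholipid, and to a lesser extent other lipids, between lipoprotein particles, and it is a known target of the oxysterol receptors LXR. Its values were 7.55 and 7.75 with vehicle and 9.43 and 9.26 with deltamethrin. The exposed arrays stood 1.51 above the nearest vehicle array, with 0.20 and 0.17 between the arrays of a group. The mean moved from 7.65 ± 0.14 to 9.35 ± 0.12 (SD, n = 2), a log2 difference of 1.70 ± 0.18 (SE) or 3.24-fold.

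Vldlr encodes a lipoprotein receptor that in the nervous system also receives the guidance protein reelin. It read 5.10 and 4.79 with vehicle and 4.86 and 4.91 with deltamethrin, so the exposed arrays fell between the vehicle arrays. The log2 difference was -0.06 ± 0.18 (SE, n = 2). Vldlr was the single dim member.

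The groups did not overlap for 7 of the 9 members, against 43.9% of all probe sets. In 6 members both deltamethrin arrays were above both vehicle arrays (20.3% of all probe sets), and in 1, Stard4, both were below (23.5%). The median log2 difference of the members was 0.39, while that of all probe sets was -0.02. In limma with Benjamini-Hochberg adjustment over all probe sets, 3 members passed an adjusted p below 0.05, all higher (Stard5 at 0.00897, Pltp at 0.0284 and Nceh1 at 0.0464), where 0.432% of all probe sets were called and 0.356% were called higher. With a mean-variance trend in the same test Npc2 passed as well, which made 4 members, where 2.25% of all probe sets were called higher and 1.38% lower. The other members had adjusted p from 0.199 (Npc2) to 0.990 (Stard3), and none was called lower (0.0766% of all probe sets). These counts describe genes picked on the same comparison. Vehicle array 1, vehicle array 2, deltamethrin array 1 and deltamethrin array 2 were also left out in turn. The lone array of a group was then assumed to vary like the other group, so only the size of the differences is read here. In those fits the log2 difference stayed between 2.63 and 2.66 for Stard5, 1.60 and 1.80 for Pltp, and 1.27 and 1.44 for Nceh1. With 2 arrays in each group, an exact two-sided permutation test of a single gene cannot go below p = 0.333.

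**Figure D2:**
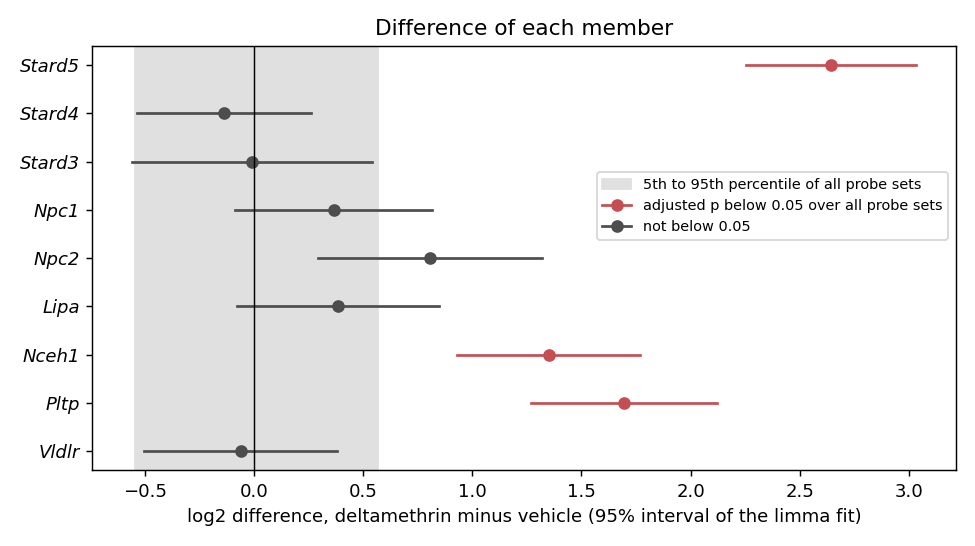
Log2 difference, deltamethrin minus vehicle (x axis), of each member with its 95% interval from limma over 2 arrays per group. The grey band spans the 5th to 95th percentile of all probe sets, -0.55 to 0.57, and Stard5, Pltp and Nceh1 lie to its right with intervals clear of it while the interval of Npc2 reaches into it.

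The arrays had medians from 5.61 to 5.63. No batch label was used here, and a batch cannot be told apart from the exposure. Of 14 sympathoadrenal and neuroblastoma markers, 11 were measured and none of the 11 was dim. Their mean level was 12.48 and 12.45 on the vehicle arrays and 12.14 and 11.93 on the deltamethrin arrays. Lower estimates were found in 10 of the 11 (median -0.50), where 46.8% of all probe sets had estimates above 0. The exception was Th, higher at 0.90 ± 0.27. In limma 0 of the 11 passed (0.432% of all probe sets). An unadjusted p below 0.05 was reached by 7, Th among them (13.7% of all probe sets). The part of this shift in the members' values was not tested. Macrophage markers, genes of a cell type that handles much sterol, were dim for 6 of 7, with mean levels of 4.18 and 3.89 with vehicle and 3.99 and 4.11 with deltamethrin. Fibroblast markers were dim for 5 of 6, and all 5 astrocyte and all 4 oligodendrocyte markers were dim.

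Among 9966 named probe sets above the median level, the 3 whose values over the 4 arrays were most like those of Stard5 were Cyb5r1, Nxf7 and Srxn1. Likeness was the root mean square distance after subtracting each gene's vehicle mean, and it was 0.09 for Cyb5r1, 0.10 for Nxf7 and 0.10 for Srxn1 on the log2 scale. Cyb5r1, a cytochrome b5 reductase gene, differed by 2.73 ± 0.17 (SE), the RNA export factor family gene Nxf7 by 2.55 ± 0.17 and the sulfiredoxin gene Srxn1 by 2.67 ± 0.18. With 4 arrays, such a ranking mainly picks genes with the same size of difference.

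The rest of the pathway was read from 7 lists holding 120 genes, of which 102 were measured. In limma 0 of the 102 passed an adjusted p below 0.05 in either direction, where 0.451% of named genes did, and 24 had an unadjusted p below 0.05, the level reached by 13.7% of all probe sets. With a mean-variance trend in the same test, 9 of the 102 were called, all higher, against 3.63% of all probe sets.

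START proteins outside the group had values around or below 0. Of 10 measured, 0 passed in limma (1 at an unadjusted p below 0.05) and 6 were not dim. Estimates were negative in 9, several of them close to 0, and positive in 1 (46.8% of all probe sets). The median was -0.06 and the highest value was 0.12. Star, the carrier that feeds cholesterol to mitochondria for steroid synthesis, was dim at 3.61 and 3.91 with vehicle and 3.67 and 3.74 with deltamethrin. Cert1, which carries ceramide rather than sterol, was at -0.37 ± 0.20 (limma adjusted p = 0.470). Stard13, a GTPase-activating protein with a START domain, had the lowest value at -1.04 ± 0.22 (limma adjusted p = 0.142).

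Sterol transfer at ER contact sites, the other non-vesicular route, was represented by oxysterol-binding protein relatives, GRAMD1 proteins and the VAP anchors. Of 16 measured, 0 passed in limma (2 at an unadjusted p below 0.05), and the median was 0.04 with 8 estimates on each side of 0. Osbpl2 read 10.44 and 10.79 with vehicle and 11.30 and 11.61 with deltamethrin, a difference of 0.84 ± 0.21 (limma adjusted p = 0.183). Osbpl6 was at 0.83 ± 0.21 (limma adjusted p = 0.191). Both were called higher with a mean-variance trend (adjusted p = 0.0314 and 0.0427). Both encode OSBP-related proteins.

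The list of late endosomal and lysosomal lipid handling was the one that holds the partners of Npc1, Npc2 and Lipa. Of 19 measured genes 15 had positive estimates (46.8% of all probe sets) and 13 had both deltamethrin arrays above both vehicle arrays (20.3% of all probe sets). In 2 of the 19 both deltamethrin arrays were below (23.5% of all probe sets). Those shares include dim probe sets, whereas none of the 19 genes was dim. The list was chosen with earlier results of these data known, so its counts are a description. The list's median was 0.44. In limma 0 of the 19 passed (0.432% of all probe sets) and 8 had an unadjusted p below 0.05 (13.7% of all probe sets). The sialidase gene Neu1 read 6.91 and 6.52 with vehicle and 7.89 and 7.83 with deltamethrin, a difference of 1.15 ± 0.20 (limma adjusted p = 0.0928). Tfe3, which encodes a transcription factor of lysosomal genes, was at 0.90 ± 0.16 (limma adjusted p = 0.105), and the related Tfeb was at -0.31 ± 0.16. With a mean-variance trend 6 of the 19 were called higher, against 2.25% of all probe sets, a share that also includes dim ones. Among the 6 were the acid ceramidase gene Asah1 (0.89, adjusted p = 0.00110), the lysosomal membrane protein gene Lamp2 (0.97, adjusted p = 0.00318) and the hexosaminidase gene Hexa (0.96, adjusted p = 0.00754). These last 3 and Tfeb were chosen as examples after their values were seen. The lysosomal members Npc2, Npc1 and Lipa, at 0.81, 0.37 and 0.39, lay within the range of this list, -0.31 to 1.15. Stard5, Pltp and Nceh1 lay above its highest value. All of these members were picked on this comparison, so their place relative to the list was not tested.

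**Figure D3:**
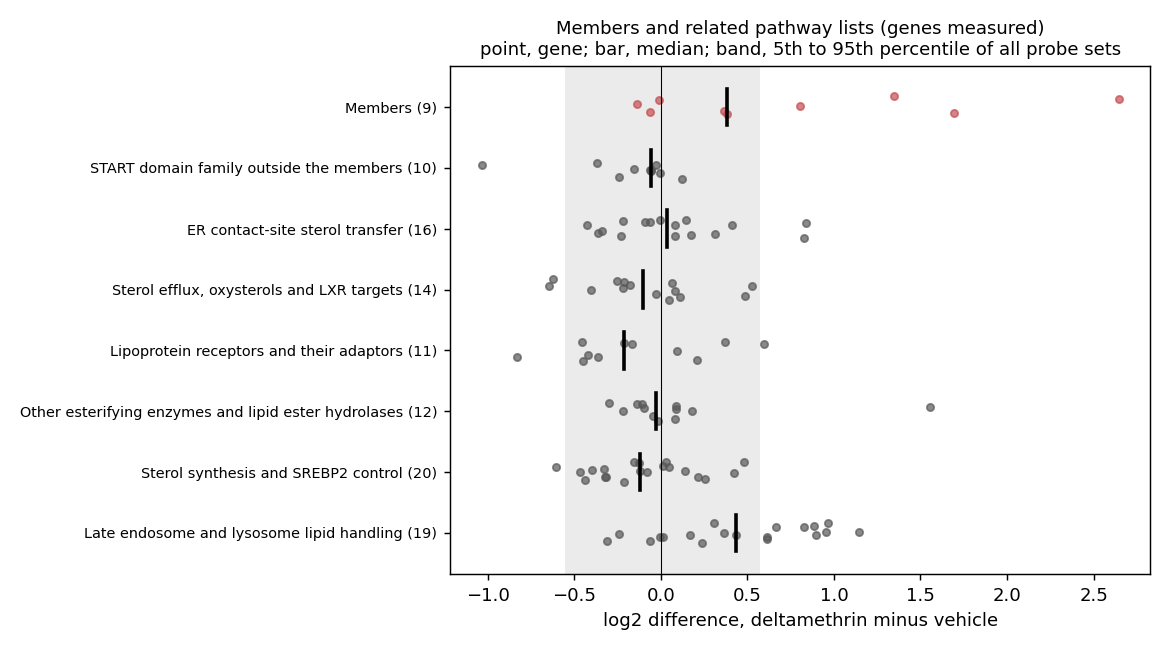
Log2 difference, deltamethrin minus vehicle (x axis), of every measured gene in the member group and in 7 related lists, with the median of each as a bar and the 5th to 95th percentile of all probe sets as a band. The late endosome and lysosome list has a median of 0.44, and the medians of the other 6 lists lie between -0.21 and 0.04.

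The lists of sterol supply had medians below 0. For sterol synthesis and its SREBP2 control, 0 of 20 measured genes passed in limma (6 at an unadjusted p below 0.05) and the median was -0.12. Srebf2 itself was at -0.13 ± 0.18 and Insig1, a feedback gene whose product holds SREBP2 back, at -0.12 ± 0.18. Both estimates lay around 0 and changed sign when 1 array was left out (Srebf2 to 0.01 without deltamethrin array 1 and Insig1 to 0.03 without deltamethrin array 2). The 2 enzyme genes with the smallest p were the mevalonate kinase gene Mvk at -0.61 ± 0.22 and the methylsterol oxidase gene Msmo1 at 0.48 ± 0.18 (limma adjusted p = 0.305 and 0.331). The others at an unadjusted p below 0.05 in limma were Nsdhl, Hsd17b7 and Dhcr7, all lower, and Insig2, higher (named after their values were seen). Both deltamethrin arrays lay below both vehicle arrays in 7 of the 20 genes and above in 4 (23.5% and 20.3% of all probe sets). Stard4, at -0.14, was close to the median of this list.

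For lipoprotein receptors and adaptors, 0 of 11 measured genes passed in limma (2 at an unadjusted p below 0.05) and the median was -0.21. Lrp8, which with Vldlr forms the receptor pair for reelin, read 10.35 and 10.37 with vehicle and 10.12 and 10.27 with deltamethrin, a difference of -0.17 ± 0.17. The megalin gene Lrp2 (-0.83 ± 0.18, limma adjusted p = 0.150) and the ligand gene Reln (-0.45 ± 0.18, limma adjusted p = 0.352) had the smallest p and were dim. In 6 of the 11 genes the level was dim in both groups.

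The list of sterol efflux, oxysterols and LXR targets holds genes beyond those that share a regulator with Pltp. Of its 14 measured genes, 0 passed in limma (4 at an unadjusted p below 0.05) and the median was -0.10. The cholesterol exporter gene Abca1 read 4.31 and 3.80 with vehicle and 3.26 and 3.56 with deltamethrin, a difference of -0.65 ± 0.23 (limma adjusted p = 0.306), which was -0.39 without vehicle array 1. The exporter gene Abcg1 pointed the other way, at 0.49 ± 0.17 (limma adjusted p = 0.307). Both were dim. Mylip, an LXR-induced ubiquitin ligase for lipoprotein receptors, was at -0.62 ± 0.20 (limma adjusted p = 0.265). The highest value of the list, that of the neuronal sterol exporter gene Abcg4, was 0.53 ± 0.20 (limma adjusted p = 0.331, named after its value was seen). The 14 genes ran from -0.65 to 0.53, and only 4 of them were not dim. Pltp, at 1.70, was picked on this comparison, and a shared regulator was not tested.

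Among other esterifying enzymes and ester hydrolases, 0 of 12 measured genes passed in limma (1 at an unadjusted p below 0.05) and the median was -0.03. That 1 gene was Dgat2, which makes triglyceride for lipid droplets. It read 7.01 and 7.55 with vehicle and 8.70 and 8.97 with deltamethrin, a difference of 1.56 ± 0.23 (limma adjusted p = 0.0709), and was called with a mean-variance trend (adjusted p = 0.00715). Pnpla3, a lipid droplet acyltransferase and lipase gene, was dim at -0.22 ± 0.18. Soat2, the second sterol acyltransferase gene, was not analysed here. Lcat, which encodes the secreted acyltransferase that esterifies cholesterol on lipoproteins, read 6.75 and 6.25 with vehicle and 6.74 and 6.23 with deltamethrin, so its groups overlapped (-0.02 ± 0.26, limma adjusted p = 0.988). Lcat was added after its values were seen.

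The promoter windows of RefSeq, which run from 250 bases before to 50 bases after a start site, were matched for 8 of the 10 genes in 9 windows, with 2 windows for Vldlr and none for Stard4 and Npc1. All 8 genes held a CCAAT box, the NF-Y motif, on either strand, in 8 of the 9 windows, where 37.4% of 32851 windows and 38.2% of windows of protein-coding genes hold one. In Stard5 it occurred at -128 to -124 and at -89 to -85, both in capitals in the sequence printed above. The E-box CACGTG, the core of the CLEAR element read by TFEB and TFE3, was found in Nceh1 only among the windows searched, at -26 to -21, and 7.15% of windows hold it. Its longer form TCACGTGA was in none of the 9 windows (0.974% of all windows).

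Matches to the other motifs fell in members whose transcripts had estimates near 0 or were not measured, and the stretches of the first kind are shown for that reason, with the match in capitals. The sterol regulatory element TCACNCCAC (1.24% of windows) occurred in Stard3 at -211 to -203, within chr11:98358137-98358186 on the + strand of GRCm38.p6. The ATF4 and CHOP composite element TGATGNAA (3.97% of windows) occurred in its complement in the second Vldlr window at -200 to -193, within chr19:27216800-27216849 on the + strand.
Stard3: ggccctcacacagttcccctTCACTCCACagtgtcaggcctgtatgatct
Vldlr: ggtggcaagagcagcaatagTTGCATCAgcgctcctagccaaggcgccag

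The antioxidant element core TGACNNNGC (12.4% of windows) was found in Soat1 and in no other window of the 8 genes searched. None of the sterol, ATF4 and CHOP or antioxidant motifs was in the windows of Stard5, Pltp or Nceh1. At shares of 1.24%, 3.97% and 12.4% of windows, absence from so few windows is unremarkable, and regulation was not tested. A match is a run of letters and not a measured binding site, and the absence of a match covers only these windows.

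**Figure D4:**
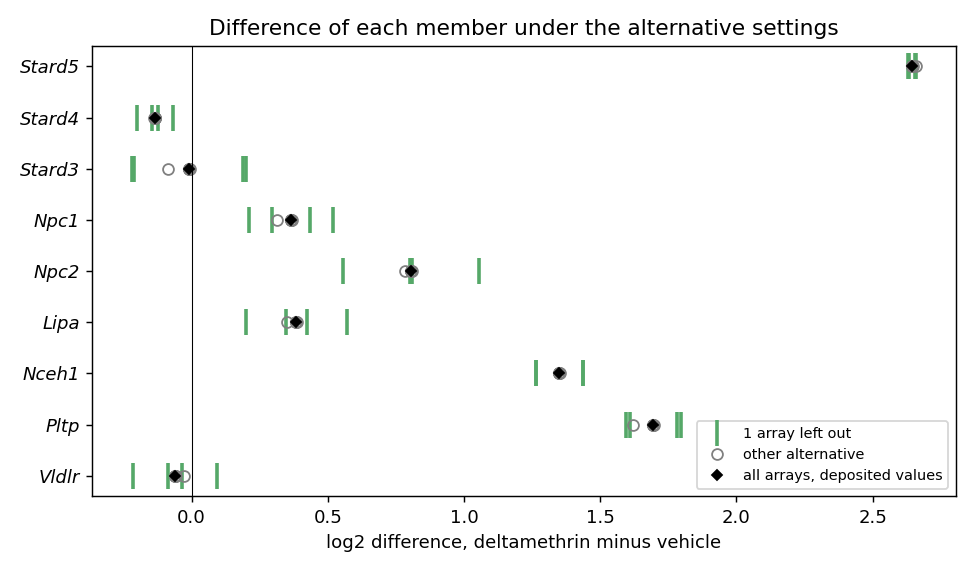
Log2 difference, deltamethrin minus vehicle (x axis), of each member with all arrays (diamonds), under 6 other settings (open circles) and with 1 array left out (green bars). Stard5 keeps within 2.63 to 2.66 when an array is left out, whereas Stard3 runs from -0.22 to 0.20 and Vldlr from -0.22 to 0.10, on both sides of 0.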

How the data were processed

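Total RNA of Neuro-2a cells was measured on 4 Clariom S Mouse arrays, and groups and replicate numbers came from the sample titles. The deposited values are log2 expression per probe set, made by the authors with RMA and Transcriptome Analysis Console according to the submitters' processing notes, with no version given in the sources used here. Of 22206 probe sets, 19572 had 1 gene symbol in the platform annotation, 0 had several and 2634 were unnamed here.

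Deltamethrin was compared with vehicle in limma 3.58.1 (R 4.3.3) by lmFit and eBayes over all probe sets, with 2 residual and 4.43 prior degrees of freedom, Benjamini-Hochberg adjustment and a threshold of 0.05 on the two-sided adjusted p. The script was tested on simulated data. The brightest probe set stood for each list gene. The number of arrays limits the precision, with a median SE of 0.19.

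All members were described. The named list genes were up to 4 called genes of largest difference per list or, where none was called, 2 of smallest p, plus Lrp8, Abca1, Abcg1, Soat2, Star, Insig1, Srebf2 and others that are not reported here. The members and lists were chosen with earlier results of these data known. Alternatives were the replicate block, a filter at the 40th percentile of level, quantile normalization, median centring, a mean-variance trend, robust moderation, each array left out and, for lists, averaging the probe sets of each gene.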

Additional observations from a re-analysis of the deposited data

How the results depend on the processing

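The members called with all arrays kept their direction under the 10 alternatives, most of which could not have changed it. The replicate block, the filter, the mean-variance trend and robust moderation leave the log2 difference as it was. Where the groups do not overlap, leaving out 1 array cannot reverse the sign. The count of 3 called members was kept at 3 by the filter at the 40th percentile of level, quantile normalization, median centring and robust moderation, and a mean-variance trend gave 4 by adding Npc2 (adjusted p = 0.0440). Leaving out 1 array gave 0 called members and 0 called probe sets each time, as did the replicate block (0 members and 0 probe sets), a fit with fewer degrees of freedom. In the block fit the adjusted p was 0.151 for Stard5, 0.205 for Pltp and 0.211 for Nceh1, with the same log2 differences. The labels do not say whether a replicate number marks a shared culture or day, and deviations of same-numbered arrays correlated at 0.127, which with 2 pairs does not settle it. The count of 96 called probe sets became 312 with the filter at the 40th percentile and 806 with a mean-variance trend. The count of 0 called list genes became 6 with that filter, all higher. The filter also removed dimmer list genes such as Star and Abca1, so these 6 are not out of 102. With the trend the count became 9 of 102, all higher, where 2.25% of all probe sets were called higher. The cause of these shifts was not tested. Stard3 changed sign in 2 of 10 alternatives and Vldlr in 1 of 10, and Star, Srebf2 and Insig1 did so too, each when an array was left out. Over the arrays left out, Lipa ran from 0.20 to 0.57, Npc1 from 0.21 to 0.52, Stard4 from -0.20 to -0.07, Abca1 from -0.90 to -0.39, Mvk from -0.85 to -0.36, Cert1 from -0.56 to -0.18, Lrp8 from -0.24 to -0.09 and Pnpla3 from -0.35 to -0.09. The lack of a detection call limits what can be said of Vldlr, Star, Abca1 and Abcg1.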
